A study of Mus musculus with 8 samples.

Results

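The proteasome genes were described by the H3K9 acetylation of their promoters in BM cells of *NUP98-HOXD13-tg* mice. Members were the protein-coding genes whose symbol starts with Psma, Psmb, Psmc, Psmd, Psme, Psmf or Psmg and a digit, without the interferon-inducible catalytic subunits *Psmb8*, *Psmb9* and *Psmb10*. This rule gave 47 of 21938 protein-coding genes and used no measured value. The symbols include 4 genes that are not constitutive parts of the complex: *Psma8*, known from testis, *Psmb11*, known from thymus, *Psme2b*, a paralogue of *Psme2*, and *Psmc3ip*, which encodes a factor of meiotic recombination. The other 43 encode subunits, activators, an inhibitor and assembly chaperones.

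The 26S proteasome degrades proteins that carry ubiquitin chains. Its 20S core is a barrel of alpha and beta rings, in which *Psmb5*, *Psmb6* and *Psmb7* encode the subunits with chymotrypsin-like, caspase-like and trypsin-like activity. The 19S cap has a base with a ring of ATPases that unfold the substrate and a lid that removes the ubiquitin. The genes are expressed in nearly all cells, and their transcription is known to rise through NFE2L1 when proteasome activity is limiting. H3K9ac is an acetylation of histone H3 found at active promoters.

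All mice were C57BL/6 and carried the *NUP98-HOXD13* transgene, a model of MDS that can progress to AML. They expressed *GFI1-36S*, the common form of the transcription factor GFI1, the variant *GFI1-36N*, or GFI1 at a reduced level (*GFI1-KD*). For each of the 3 genotypes, 1 library is labelled as without curcumin, here called vehicle since the study's control mice received DMSO, and 1 is from curcumin treatment, given at 20 mg/kg weekly by i.p. injection. The labels give whole BM cells, where a legend of the study names c-kit+ cells, and no age, sex or number of pooled mice. Each group was a single library, so a difference within a genotype could not be set against a spread between mice, and curcumin was tested only over the 3 genotypes as pairs. The study compared curcumin with vehicle within each genotype to see how curcumin changed H3K9ac at promoters. In bulk BM, a change in the mix of cells and a change per cell cannot be told apart.

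The lists held 20354 to 49213 peaks, and 9726 to 11801 protein-coding genes had a promoter peak. A promoter peak was one that overlapped the 1000 bp on each side of any annotated transcription start site (TSS). The strongest one, by the fold enrichment of its summit over the background, was ranked from 0 to 100 among the genes with a promoter peak in that library, with a gene without a peak at 0. Between 24 and 36 fragments lay at the median summit of all peaks, and 31 to 289 at the summits of proteasome genes where fragments could be recovered. The library labelled *GFI1-36S* curcumin stood apart. It held the fewest peaks, 3 peaks on chromosome Y where the other 5 libraries held 0, a promoter peak at 0 of 8 neutrophil genes against 5 to 8 in the others, and at 6 of 6 T-cell genes against 0 to 3. Of 4 stem and progenitor genes 0 had a peak there against 3 to 4 elsewhere, and of 5 erythroid genes 1 against 2 to 5. B-cell genes had a peak at 0 to 2 of 4, the 3 pan-hematopoietic genes at 2 to 3, and 4 genes not expected in BM at 0 in all 6 libraries. The part of these differences in the values of *GFI1-36S* was not tested. The promoter of *Gfi1* ranked 20.96 and 68.8 in *GFI1-36S* with vehicle and curcumin, 21.1 and 35.5 in *-36N*, and 26.7 and 29.3 in *-KD*, which does not measure the amount of GFI1. The labels were followed throughout, although for *GFI1-36S* each list is named for the other treatment, and the names of the *-36N* lists differ in allele dose, heterozygous with vehicle and homozygous with curcumin, on which the labels are silent.

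Most proteasome promoters were acetylated in every library, and at higher rank than most promoters. Of the 47 genes, 41 carried a promoter peak in each of the 6 libraries and the other 6 carried one in none. Over all protein-coding genes, 42.6% had a peak in all 6, and 74.4% of the genes with a peak in at least 1 library. Without the library labelled *GFI1-36S* curcumin, the same count over 5 libraries was 41. The median rank of the 41 genes was 64.1 and 68.8 in *GFI1-36S* with vehicle and curcumin, 74.2 and 71.3 in *-36N*, and 72.5 and 66.1 in *-KD*, where the median of all genes with a peak was between 49.6 and 50.2. Over all 47 genes it was 60.4 to 68.0. Of the 41 genes, 22 ranked above 50 in all 6 libraries, against 38.4% of all genes with 6 peaks. The genes differed more among themselves than each did across libraries. The SD between their mean ranks was 17.1 points, and the median SD of 1 gene over the 6 libraries was 8.02, beside 24.0 and 8.43 for all genes with 6 peaks.

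**Figure D1:**
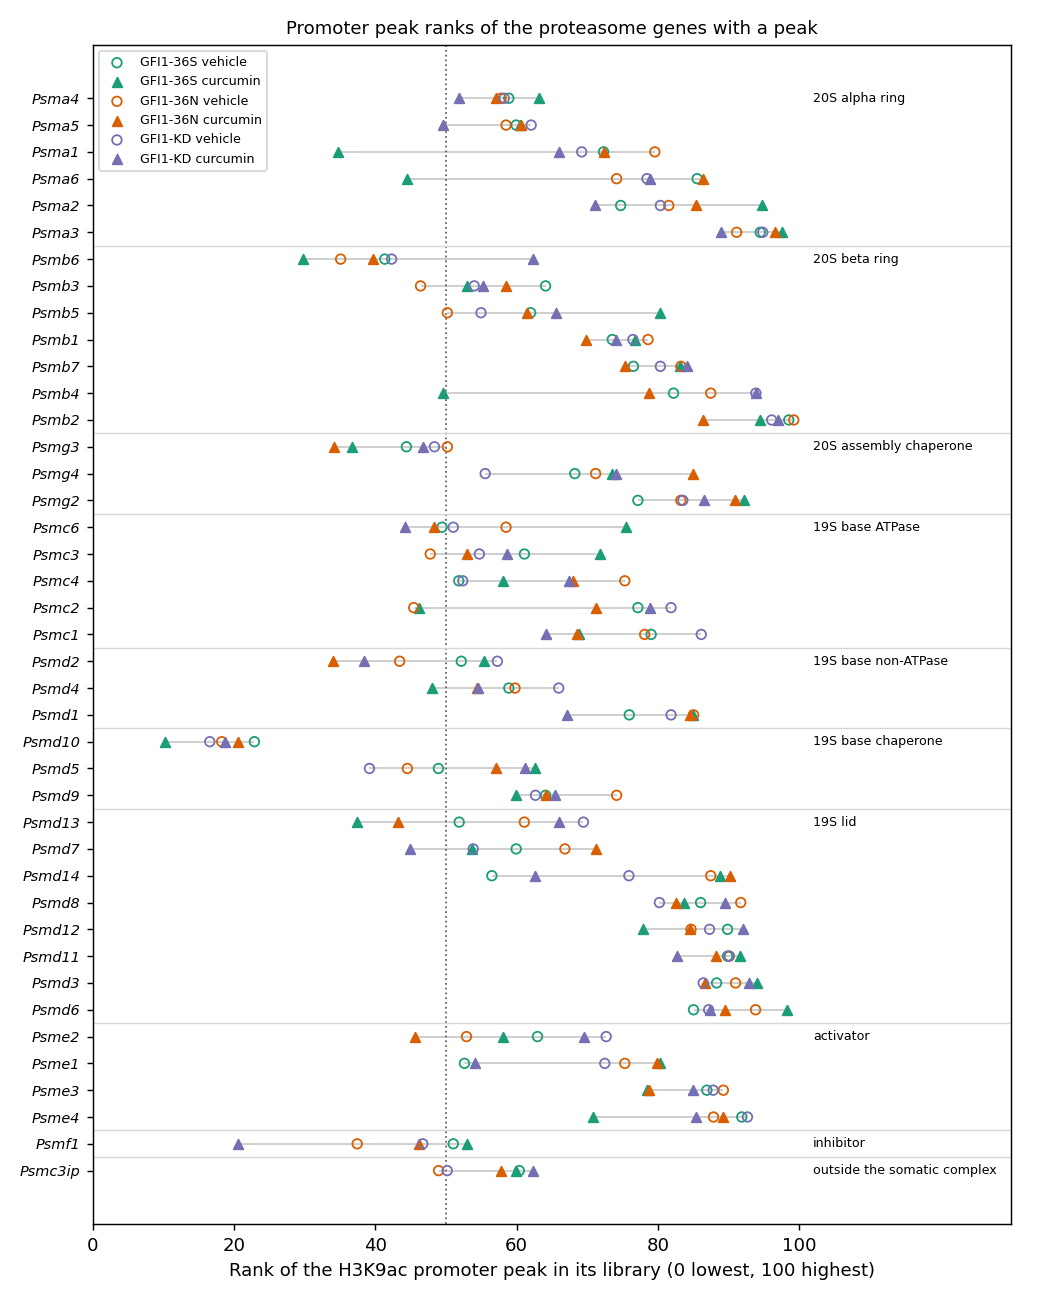
Rank of the strongest H3K9ac promoter peak (x axis, 0 to 100 within a library) of the 41 proteasome genes with a peak, grouped by role. Open circles are vehicle and filled triangles curcumin libraries, colours are genotypes, grey lines join the lowest and highest of the 6 libraries, and the dotted line is at 50. *Psmb2* and *Psma3* lie to the right in all libraries, *Psmd10* lies at 10.2 to 22.9, and the library labelled *GFI1-36S* curcumin gives the lowest points of *Psma1*, *Psma6* and *Psmb4*.

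Among the alpha subunits, which gate the core, *Psma3* ranked highest. Its promoter ranked 94.5 and 97.5 in *GFI1-36S* with vehicle and curcumin, 91.2 and 96.6 in *-36N*, and 94.9 and 89.0 in *-KD*. The 6 alpha genes with a peak had mean ranks over the 6 libraries from 57.8 to 93.9, with a median of 70.2. The lowest of them was *Psma4*.

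The beta subunits spanned a wide range. *Psmb2*, a subunit without catalytic activity, had the highest mean rank of all proteasome genes, 95.3. It ranked 98.6 and 94.5 in *GFI1-36S*, 99.3 and 86.4 in *-36N*, and 96.1 and 97.1 in *-KD*, vehicle first. *Psmb6* had the lowest mean rank of the core, 41.7, with 41.3 and 29.7 in *GFI1-36S*, 35.1 and 39.7 in *-36N*, and 42.3 and 62.3 in *-KD*. It was below 50 in 5 of 6 libraries. *Psmb7* ranked 76.5 and 83.1, 83.3 and 75.4, and 80.4 and 84.2 in the same order, above *Psmb6* in each. *Psmb5* lay between them in all 6 libraries, at 50.2 to 80.4. The 3 catalytic subunits, which sit in the same ring in equal number, thus did not rank alike, although neighbours were close in some libraries. The summits of *Psmb5* and *Psmb7* both held 105 fragments in *GFI1-36S* curcumin, and those of *Psmb6* and *Psmb5* held 134 and 146 in *-KD* curcumin.

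The 19S lid ranked highest of the groups with more than 1 gene. Its 8 genes had a median mean rank of 85.9, against 62.2 for the 5 ATPases with a peak, 56.9 for the 3 other base subunits and 52.2 for the 3 base chaperones. *Psmd6*, a lid subunit, ranked 85.1 and 98.3 in *GFI1-36S*, 93.8 and 89.6 in *-36N*, and 87.2 and 87.4 in *-KD*. The next in order, *Psmd3* and *Psmd11*, had mean ranks of 89.9 and 88.8, which differ from that of *Psmd6*, 90.2, by less than the SD of each over libraries, 4.94 for *Psmd6*, 3.25 and 3.16. *Psmd13* was the lowest lid gene at 54.8. *Psmd14* encodes the subunit that cuts ubiquitin off, and its mean rank was 76.9.

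*Psmd10*, on chromosome X, stood below all others. It encodes gankyrin, a chaperone of the base, and ranked 22.9 and 10.2 in *GFI1-36S*, 18.2 and 20.5 in *-36N*, and 16.6 and 18.7 in *-KD*. Its summits held 69 and 31, 59 and 59, and 63 and 59 fragments. The highest value of *Psmd10* lay below the lowest value of every other proteasome gene with a peak except *Psmf1*, the inhibitor PI31, which fell to 20.6 in *GFI1-KD* curcumin. *Psmf1* ranked 51.0 and 53.0, 37.4 and 46.2, and 46.7 and 20.6. Among the activators, *Psme4* and *Psme3* had mean ranks of 86.3 and 84.4. *Psme1* and *Psme2*, the interferon-inducible PA28 pair, had 69.1 and 60.3.

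The 3 left-out subunits of the immunoproteasome did not stand above the constitutive ones. *Psmb8* ranked 45.0 to 69.7 over the 6 libraries, *Psmb9* 58.8 to 77.3 and *Psmb10* 44.4 to 53.0. The median over other listed genes of the ubiquitin-proteasome system was above that of each group of the proteasome genes chosen by symbol except the 19S lid, at 85.9. Of 33 listed, 32 were found in the annotation, each of the 32 carried a peak in every library, and their median mean rank was 84.7, from 34.4 for the ubiquilin gene *Ubqln2* to 97.5 for *Zfand5*. *Nfe2l1*, which encodes the factor that induces proteasome genes, ranked 79.1 and 40.1 in *GFI1-36S*, 53.6 and 68.0 in *-36N*, and 80.1 and 71.1 in *-KD*.

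The 6 genes without a promoter peak fell into separate kinds. MACS2 numbers the peaks of a list in order, and 516 to 946 numbers were absent from each list. At *Psma7*, *Psmc5* and *Psmg1*, the numbers of the peaks listed on either side of the TSS skipped in all 6 lists, by 3 to 4, 2 to 5 and 1. The same held for 594 of 9381 protein-coding genes without a promoter peak, 6.33%. At *Psma7* the nearest listed peaks lay 17664 to 64572 bp to one side and 57156 to 76927 bp to the other, and at *Psmc5* 32179 to 38087 and 49351 to 131094 bp. Peaks between those neighbours were thus numbered but are not in the lists analysed here, and whether any lay at these 3 promoters cannot be read from them. The study's methods state a black list filter, whose part was not tested. All 3 are constitutive: an alpha subunit, a base ATPase and a 20S assembly chaperone. At *Psma8* and *Psmb11* no number was skipped in any list. *Psmb11* lies next to *Psmb5*, whose peak ended 6964 to 7067 bp before its TSS. At *Psme2b* numbers were skipped in 4 of 6 lists.

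The summits of proteasome genes lay downstream of the TSS, where the first nucleosomes of a transcribed gene are placed. In the 6 libraries, 36 to 38 of the 41 genes had the summit downstream, and 77.4% to 79.3% of all genes with a promoter peak did. In all 6 libraries at once this held for 35 of 41 genes, against 67.1% of all genes with 6 peaks. The median distance was 210 to 244 bp for proteasome genes and 171 to 193 bp for all genes. Peak widths were like those of other promoters, with medians of 1065 to 2062 bp against 1064 to 1963 bp. In all 6 libraries, 8 of 41 genes shared their peak with the promoter of another protein-coding gene, against 22.9% of all genes with 6 peaks. These pairs were *Psmc2* and *Dnajc2*, *Psmd13* and *Sirt3*, *Psma2* and *Mrpl32*, *Psme2* and *Rnf31*, *Psmg2* and *Cep76*, *Psmd10* and *Atg4a*, *Psma4* and AY074887, and *Psmg3* and Gm26938. For these the acetylation cannot be assigned to 1 gene. *Psmc3ip*, which is no subunit, and *Psmg2* had the summit upstream in all 6 libraries.

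**Figure D2:**
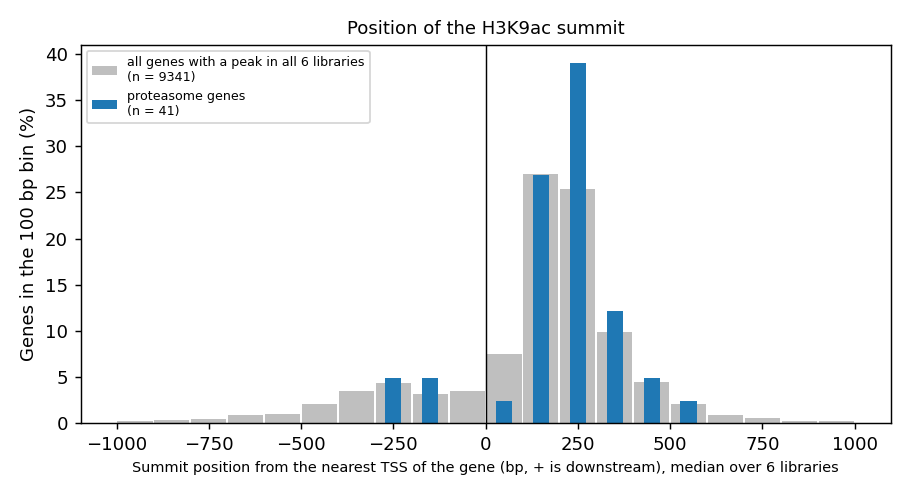
Share of genes (y axis, %) by the position of the H3K9ac summit from the nearest TSS of the gene (x axis, bp, positive is downstream, 100 bp bins, median over 6 libraries). Blue bars are the 41 proteasome genes and grey bars the 9341 genes with a peak in all 6 libraries, and positions beyond 1000 bp, among them *Psmc2*, are not drawn. Most proteasome genes lie between 100 and 400 bp downstream.

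With curcumin, the ranks of proteasome genes moved in both directions in each genotype. The median change, curcumin minus vehicle, was 0.49 points for *GFI1-36S*, -0.50 for *-36N* and -2.38 for *-KD*, where that of all genes with a promoter peak in the pair was -6.61, 1.89 and -2.34. No proteasome gene gained or lost its promoter peak in any pair, where 18.2%, 7.57% and 7.92% of all genes did. With the ranking kept to genes that had both peaks of a pair, the medians were 3.97, -1.14 and -0.98 for proteasome genes and -0.27, 0.06 and 0.11 for all genes, where ranks of the same genes in both libraries are centred on 0 by construction. In the ranking over all promoter peaks, genes with both peaks had medians of -5.56, 1.74 and -2.11. Within a genotype no test was possible, and a change of at least 10 points was counted as a fixed size. In *GFI1-36S*, 9 proteasome genes rose and 12 fell by that size, against 15.0% and 41.4% of all genes. In *-36N*, 6 rose and 6 fell, against 19.3% and 11.3%. In *-KD*, 6 rose and 8 fell, against 9.47% and 20.6%. The all-gene shares include genes with a peak in 1 library of the pair alone, of which the proteasome genes held 0.

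**Figure D3:**
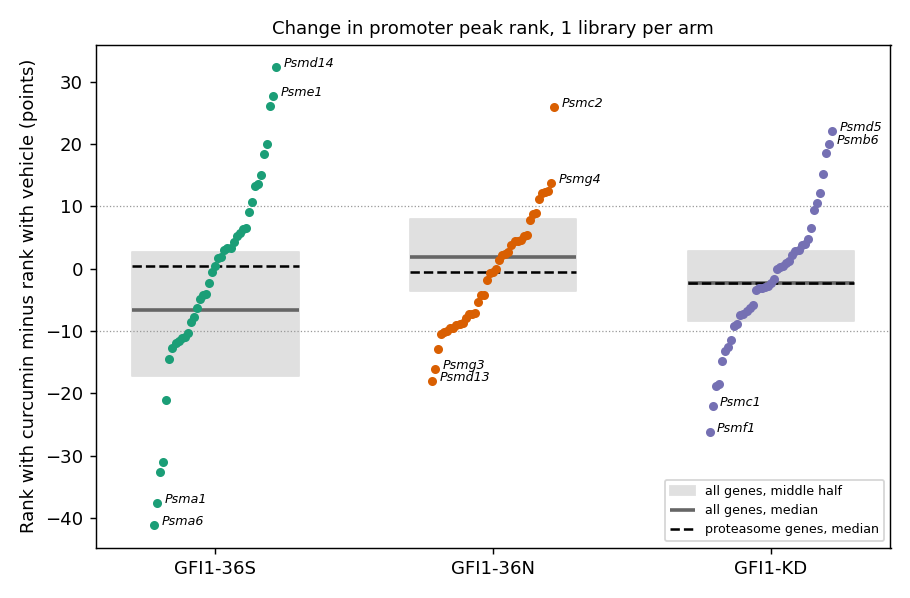
Change in promoter peak rank, curcumin minus vehicle (y axis, points), of the 41 proteasome genes in each genotype (x axis), 1 library per arm. Each point is a gene, sorted within its genotype, the grey box spans the quartiles of all genes with a promoter peak in the pair, the solid line is their median and the dashed line that of the proteasome genes. Points lie on both sides of 0 in each genotype, and the dotted lines mark 10 points.

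Over the 3 genotypes as pairs, no proteasome gene passed the test. In limma with genotype as a block, on the log2 fold enrichment relative to the median promoter of the library, 0 of the 9341 genes with 6 peaks had an adjusted p under 0.05 in either direction (0.00% higher and 0.00% lower), and the smallest adjusted p of a proteasome gene was 0.844. At an unadjusted p under 0.05, 259 genes were higher and 246 lower with curcumin, 2.77% and 2.63% of those tested. Among the 41 proteasome genes 1 was higher, *Psmd5*, and 0 were lower. The effect was 0.36 on the log2 scale (95% interval 0.02 to 0.69, adjusted p = 0.844 in limma) for *Psmd5* and 0.28 (-0.02 to 0.58, adjusted p = 0.844) for *Psmb5*. The spread in this test is how much the change differed between the 3 genotypes. It is not a spread between mice of the same genotype. Without 1 of the 3 pairs at a time, with the *GFI1-36S* treatments exchanged, or on ranks, the test also called 0 of 41 genes. Of all 9341 genes it called 29 higher and 54 lower without the *-KD* pair, 4 lower without the *GFI1-36S* pair, and 0 otherwise.

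By size alone, of the 41 genes *Psmb5* and *Psmd5* rose by at least 10 points in all 3 genotypes, and 0 fell in all 3. Among the 12557 genes with a promoter peak in at least 1 library, 0.549% rose and 1.50% fell in all 3. *Psmb5*, the chymotrypsin-like subunit, ranked 62.0 with vehicle and 80.4 with curcumin in *GFI1-36S*, 50.2 and 61.4 in *-36N*, and 55.0 and 65.5 in *-KD*. Its fold enrichment was 23.0 and 18.1, 17.5 and 24.1, and 23.2 and 23.3, in libraries whose median promoter peak was at 20.0 and 12.5, 17.5 and 21.1, and 21.7 and 19.2. The summit held 142 and 105, 121 and 138, and 177 and 146 fragments. Relative to the median gene of the pair, the log2 ratio of fold enrichment was 0.41 in *GFI1-36S*, with a 95% counting interval of 0.03 to 0.78, 0.18 (-0.18 to 0.54) in *-36N* and 0.22 (-0.11 to 0.54) in *-KD*. In *-36N* and *-KD* these intervals, which cover counting error alone, include 0.

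*Psmd5* encodes a chaperone that binds the ATPase ring during assembly of the base. It ranked 48.9 and 62.6 in *GFI1-36S*, 44.5 and 57.0 in *-36N*, and 39.2 and 61.2 in *-KD*. The 3 curcumin libraries thus lay above the 3 vehicle libraries for this gene. The summit held 132 and 87, 112 and 132, and 171 and 132 fragments. The log2 ratio was 0.31 (-0.10 to 0.71), 0.23 (-0.15 to 0.60) and 0.49 (0.15 to 0.83), which lies above 0 in *-KD*. The fold enrichment divides by a local background, and in *-KD* this was 7.0 fragments with vehicle and 4.52 with curcumin. From the fragments alone the log2 ratio in *-KD* was 0.11 (-0.23 to 0.45), and ranked by −log10 p the rise in *-KD* was 11.6 points. With vehicle the summit in *-KD* lay 234 bp downstream of the TSS and with curcumin 235 bp upstream, inside the same peak. In the ranking kept to genes with both peaks, *Psmd5* rose by 22.0, 11.0 and 25.8 points and *Psmb5* by 24.9, 9.84 and 13.4, so that *Psmb5* fell short of 10 points in *-36N*. *Psmg4*, a 20S assembly chaperone, rose by 13.8 points in *-36N* and 18.5 in *-KD*, and by 5.25 in *GFI1-36S* (10.6 in the latter ranking). It ranked 68.3 and 73.5, 71.2 and 85.0, and 55.6 and 74.1. With the *GFI1-36S* treatments exchanged, the changes in that genotype have the opposite sign, and 0 genes rose in all 3.

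The promoters of *Psmb5* and *Psmd5* are shown with those of *Psmb6*, *Psmd11* and *Psmd10*, which mark a low catalytic subunit, a high lid gene and the lowest gene. Each is the RefSeq window of 250 bases before and 50 after the start of the gene in GRCm38.p6, 5′ to 3′ on the strand of the gene, and capitals mark matches on either strand to the motifs searched. *Psmb5* is chr14:54617946-54618245 (minus strand), *Psmd5* chr2:34870913-34871212 (minus), *Psmb6* chr11:70525107-70525406 (plus), *Psmd11* chr11:80428365-80428664 (plus) and *Psmd10* chrX:140956662-140956961 (minus). The H3K9ac peak overlapped each window in all 6 libraries, and covered that of *Psmd5* whole in 6, *Psmb5* in 5 and *Psmd10* in 0.
Psmb5: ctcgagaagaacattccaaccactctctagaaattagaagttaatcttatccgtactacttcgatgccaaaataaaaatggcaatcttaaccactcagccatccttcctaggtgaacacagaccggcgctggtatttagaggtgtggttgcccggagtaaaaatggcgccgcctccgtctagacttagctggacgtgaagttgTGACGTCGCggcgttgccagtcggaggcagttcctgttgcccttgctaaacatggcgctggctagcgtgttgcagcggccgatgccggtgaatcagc
Psmd5: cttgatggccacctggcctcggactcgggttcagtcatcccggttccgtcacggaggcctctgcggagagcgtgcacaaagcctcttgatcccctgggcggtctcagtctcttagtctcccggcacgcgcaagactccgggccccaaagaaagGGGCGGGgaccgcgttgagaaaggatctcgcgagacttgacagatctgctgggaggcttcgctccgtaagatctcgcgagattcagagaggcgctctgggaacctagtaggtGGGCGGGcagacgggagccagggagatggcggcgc
Psmb6: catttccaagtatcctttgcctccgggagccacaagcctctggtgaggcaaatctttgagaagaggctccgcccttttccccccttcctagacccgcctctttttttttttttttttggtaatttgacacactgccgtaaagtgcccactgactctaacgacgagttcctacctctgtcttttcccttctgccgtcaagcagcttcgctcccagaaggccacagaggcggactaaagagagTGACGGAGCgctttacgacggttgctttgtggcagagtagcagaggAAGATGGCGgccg
Psmd11: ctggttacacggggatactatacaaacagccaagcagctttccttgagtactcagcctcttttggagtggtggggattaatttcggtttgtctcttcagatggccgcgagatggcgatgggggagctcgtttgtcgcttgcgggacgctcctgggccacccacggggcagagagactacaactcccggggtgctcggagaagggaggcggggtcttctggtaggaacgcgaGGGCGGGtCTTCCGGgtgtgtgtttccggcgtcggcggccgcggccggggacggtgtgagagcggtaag
Psmd10: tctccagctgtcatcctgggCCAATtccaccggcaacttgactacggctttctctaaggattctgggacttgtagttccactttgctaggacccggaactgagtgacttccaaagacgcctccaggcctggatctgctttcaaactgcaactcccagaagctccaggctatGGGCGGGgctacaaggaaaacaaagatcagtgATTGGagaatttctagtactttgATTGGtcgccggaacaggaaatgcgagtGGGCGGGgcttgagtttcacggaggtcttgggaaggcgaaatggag

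The motifs were TGACNNNGC, the core of the antioxidant response element to which NFE2L1 and NFE2L2 bind, CCGGAAG (ETS), GGGCGGG (GC box), CCAAT, the E-box CACGTG, the TATA box TATAAA, GAAANNGAA (interferon response element core) and AAGATGGCG (YY1). Of the 47 genes, 39 had a promoter in the table. The antioxidant element core was found in 6 of 39 promoters (15.4%) and in 13.3% of the 16522 protein-coding promoters of the same length, and 14.8% of those of genes with 6 peaks. *Psmb5* and *Psmb6* were among the 6, with *Psmc6*, *Psmd9*, *Psmd12* and *Psme4*. In the *Psmb5* window the match began 47 bases before the gene start, and in *Psmb6* it began 9 bases before it, with a YY1 match 37 bases after it. The *Psmd5* window held 2 GC boxes, that of *Psmd11* a GC box and an ETS match side by side, and that of *Psmd10* 3 CCAAT and 2 GC boxes. No marked matches overlap each other. The ETS motif was found in 14 of 39 (35.9%), against 12.3% of all promoters and 22.4% of those of genes with a peak in all 6 libraries. It occurred in 4 of the 6 lid genes with a promoter in the table, *Psmd6*, *Psmd11*, *Psmd12* and *Psmd13*. Against all promoters and those of genes with 6 peaks, the GC box was found in 41.0%, above the 35.2% of the former and below the 50.9% of the latter, and TATAAA in 7.69%, below 12.9% and above 5.70%. The share for CCAAT was 35.9% against 38.7% and 39.8%, for the E-box 7.69% against 8.11% and 11.0%, for the interferon element core 15.4% against 8.35% and 7.01%, and for YY1 5.13% against 2.05% and 3.96%. These shares are over all 39 promoters, which include genes without a peak. Of the 34 with 6 peaks, 6 held the antioxidant element core, 13 the ETS motif, 14 the GC box and 12 CCAAT. The E-box and TATAAA were each found in 3 of these 34, the interferon element core in 6 and YY1 in 1. For YY1 this lies below the 3.96% of genes with 6 peaks. Of the PA28 pair, *Psme1* held the interferon element core. The median GC content was 57.3% for proteasome genes and 57.0% for all promoters. With 6 peaks it was 58.2% for proteasome genes and 61.7% for all genes. A match describes letters and is not a bound site.

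Within *GFI1-36S*, *Psmd14* rose from 56.5 to 88.8, *Psme1* from 52.6 to 80.4 and *Psmc6*, a base ATPase, from 49.5 to 75.5. For these 3 the counting interval of the log2 ratio lay above the median gene, at 0.68 (0.34 to 1.01) for *Psmd14*, 0.56 (0.20 to 0.91) for *Psme1* and 0.53 (0.16 to 0.90) for *Psmc6*. The alpha subunits *Psma6* and *Psma1* fell from 85.6 to 44.5 and from 72.3 to 34.7, and the beta subunit *Psmb4* fell from 82.2 to 49.6. Their log2 ratios were -0.61 (-0.99 to -0.24), -0.59 (-1.01 to -0.17) and -0.45 (-0.87 to -0.04). At *Psma6* and *Psma1* the local background moved with the fall, from 4.32 to 7.0 and from 4.32 to 6.00 fragments. From the fragments alone, 178 and 93 at *Psma6* and 153 and 71 at *Psma1*, the log2 ratios were -0.09 (-0.47 to 0.28) and -0.26 (-0.69 to 0.16), which include 0. At *Psmb4*, with 170 and 69 fragments and a background that stayed at that of the genome, the ratio was -0.45 (-0.88 to -0.04) either way. In the other 4 libraries these 3 genes ranked 66.0 to 93.9, so the library labelled *GFI1-36S* curcumin held the lowest value of each. Over the proteasome genes of *GFI1-36S*, the interval lay above 0 for 8 and below 0 for 4 of 41, against 16.2% and 13.6% of all genes with a peak in both libraries.

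In *GFI1-36N* the moves were smaller. *Psmc2*, a base ATPase, rose from 45.4 to 71.3, *Psmg4* from 71.2 to 85.0 and *Psmd5* from 44.5 to 57.0. The lid gene *Psmd13* fell from 61.1 to 43.1, the 20S assembly chaperone *Psmg3* from 50.2 to 34.1 and *Psmb2* from 99.3 to 86.4. The log2 ratio of *Psmg3* was -0.37 (-0.76 to 0.01), and from the fragments alone -0.16 (-0.55 to 0.23). For *Psmd13* the 2 ratios were -0.33 and -0.34. The interval lay above 0 for *Psmc2* alone and below 0 for 0 of 40 genes, against 7.26% and 7.36% of all genes. At *Psmc2* the change came with a change of the peak that was chosen. The gene has a peak around the TSS and another whose summit lay 1632 to 1703 bp downstream. The downstream peak began 1043 bp from the TSS with vehicle and 922 bp with curcumin, and so overlapped the window of 1000 bp in the curcumin library only. Within 3 kb of the TSS the ranks were 74.4 and 71.6. In *GFI1-36S* the downstream peak was outside the window with curcumin, at 1413 bp, and the fall of *Psmc2* from 77.2 to 46.2 became one from 77.4 to 61.0 within 3 kb. In the pair of *-36S*, 1 of 41 proteasome genes had promoter peaks that did not overlap between the libraries, *Psmc2*, in *-36N* 2, with *Psmb1*, and in *-KD* 0, against 2.63%, 1.94% and 1.37% of all genes.

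In *GFI1-KD*, *Psmd5* rose from 39.2 to 61.2, *Psmb6* from 42.3 to 62.3 and *Psmg4* from 55.6 to 74.1. The inhibitor gene *Psmf1* fell from 46.7 to 20.6, the ATPase gene *Psmc1* from 86.2 to 64.1 and the base scaffold *Psmd2* from 57.3 to 38.5. The log2 ratio of *Psmf1* was -0.75 (-1.20 to -0.32), with 150 fragments at the summit with vehicle and 63 with curcumin. That of *Psmb6* was 0.43 (0.08 to 0.79) and that of *Psmc1* -0.36 (-0.67 to -0.05). The interval lay above 0 for 3 genes (*Psmd5*, *Psmb6* and *Psmg4*) and below 0 for 2 (*Psmf1* and *Psmc1*) of 40, against 8.58% and 8.75% of all genes. The 3 base subunits without ATPase activity, *Psmd1*, *Psmd2* and *Psmd4*, changed by -14.8, -18.8 and -11.4 points in *-KD*, where 20.6% of all genes fell by at least 10. The counting intervals of all 3 include 0, with log2 ratios of -0.23 (-0.54 to 0.08), -0.35 (-0.72 to 0.02) and -0.19 (-0.53 to 0.15). From the fragments alone, the interval in *-KD* lay above 0 for 3 genes (*Psma1*, *Psmb6* and *Psmg4*) and below 0 for 3 (*Psmf1*, *Psmc1* and *Psme1*). The share of all genes was not computed for this measure.

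**Figure D4:**
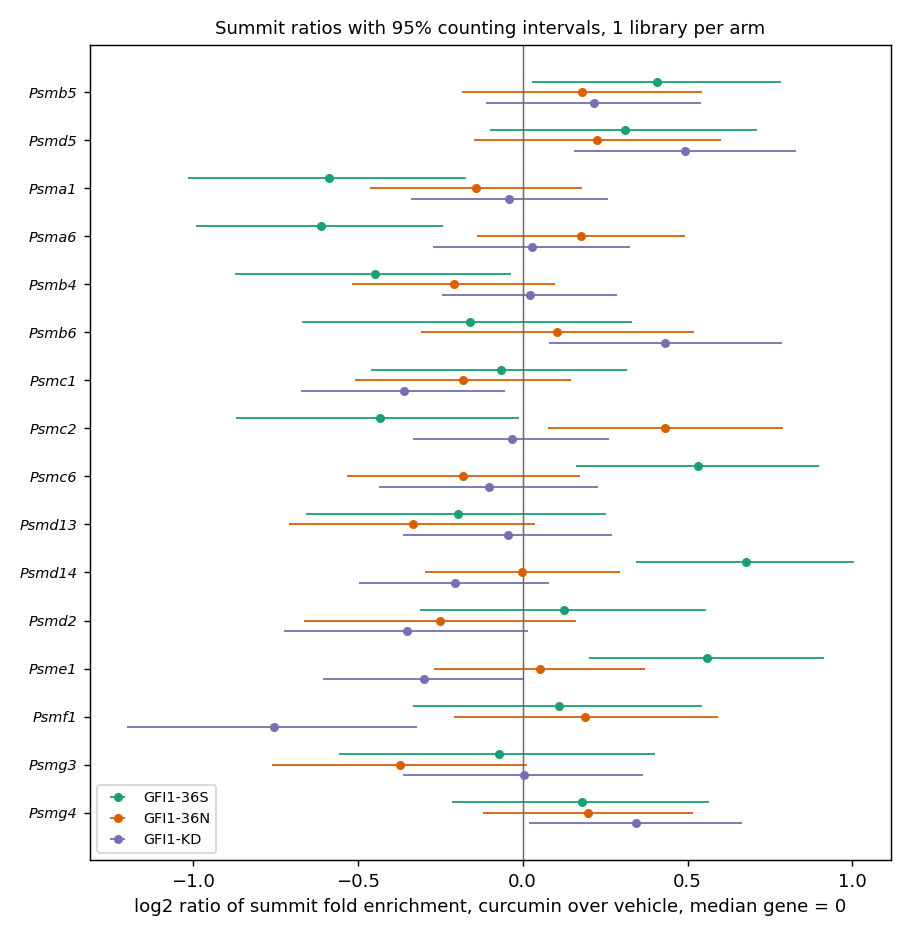
log2 ratio of the summit fold enrichment with curcumin over that with vehicle (x axis, the median gene with a peak in both libraries of the pair at 0) for *Psmb5*, *Psmd5* and the genes with the largest rank changes. Points are single pairs of libraries, colours are genotypes, and bars are 95% counting intervals, which do not cover differences between mice. The intervals of *Psmb5* in *GFI1-36S* and *Psmd5* in *-KD* lie above 0, the latter with a lower local background in the curcumin library, and *Psmf1* in *-KD* lies at -0.75. *Psmb2* is not drawn, as its fragments could not be recovered in the *-36N* and *-KD* vehicle libraries.

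The ranks of the PA28 genes did not move together. *Psme2* ranked 63.0 and 58.1, 52.9 and 45.6, and 72.7 and 69.6, lower with curcumin in each genotype with changes of -4.85, -7.30 and -3.12 points. The counting intervals of its log2 ratio include 0 in each genotype, at -0.01 (-0.40 to 0.38), -0.14 (-0.52 to 0.24) and -0.04 (-0.35 to 0.28). In *GFI1-36S* its local background rose from 4.32 to 6.0 fragments. From the fragments alone the ratio there was 0.32 (-0.07 to 0.71), of the same sign as the 0.53 (0.17 to 0.88) of *Psme1*. *Psme1* rose by 27.8 points in *GFI1-36S*, changed by 4.50 in *-36N* and fell by 18.4 in *-KD*. The immunoproteasome gene *Psmb9* was lower with curcumin in each genotype, with changes of -11.3, -6.02 and -10.2 points. *Psmb8* changed by 1.24, 3.59 and -3.24 points and *Psmb10* by 6.16, -3.06 and -6.32. Of the 32 other genes of the ubiquitin-proteasome system, 2 rose and 7 fell by at least 10 points in *GFI1-36S*, 4 rose and 2 fell in *-36N*, and 0 rose and 2 fell in *-KD*, with median changes of -3.36, 1.19 and -1.45 points. Among all genes the shares past that size were 15.0% and 41.4%, 19.3% and 11.3%, and 9.47% and 20.6%. Over any size of change in rank, 5 proteasome genes (*Psmb5*, *Psmc3*, *Psmd5*, *Psmg2* and *Psmg4*) were higher with curcumin in all 3 genotypes and 7 (*Psma1*, *Psmc1*, *Psmd4*, *Psmd13*, *Psme2*, *Psme3* and *Psmg3*) lower, against 9.20% and 17.8% of all genes with 6 peaks. The ranks of the lower genes partly rest on the local background. At *Psma1* in *-KD* it rose from 5.15 to 6.0 fragments, and from the fragments alone the log2 ratio was 0.30 (0.004 to 0.60). That of *Psme2* in *GFI1-36S* was also above 0, as given above.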

How the data were processed

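H3K9ac ChIP-seq of BM cells was analysed in 6 libraries, 1 vehicle and 1 curcumin for each genotype. The input and IgG samples were not used here. The authors trimmed reads with Trim Galore, mapped them with BWA-MEM (mm10), ran MACS2 on every library on its own and applied the ENCODE black list. The deposited lists give per peak the fold enrichment (a ratio to the background), −log10 p, −log10 q, an integer score and the summit offset, all by the authors. None is normalized between libraries. Library totals and tool versions are not given in the sources used here. Genes and TSSs came from GENCODE M21 (basic set, protein-coding, same assembly). Overlap meant at least 1 bp. Python 3.11.15, numpy 2.4.6, scipy 1.17.1, pandas 2.3.3 and matplotlib were used.

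Fragments at a summit were recovered from fold enrichment and −log10 p by the relation MACS2 uses, within 0.01 on the −log10 p, for 98.6% to 99.9% of the peaks of a library. Intervals are exact (Clopper-Pearson for ratios) at 95% and cover counting error only. Ratios were divided by the median gene with a peak in both libraries. Curcumin was tested over the 3 genotypes with limma 3.58.1 (genotype as block, trended eBayes, Benjamini-Hochberg over 9341 genes), a test added after the data were seen. The steps were tested on simulated data.

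The members, lists and tests were chosen with earlier results of these data known. Named were the catalytic subunits, the 3 highest and 3 lowest mean ranks, genes without a peak, the 3 largest rises and falls per genotype, genes that moved by at least 10 points one way in all 3, and the PA28 and immunoproteasome genes. Others named were chosen after their values were seen. Alternatives raised the −log10 q to 5 or more, or used equal numbers of top peaks, windows of 3 kb and 500 bp, the summit inside the window, ranks by −log10 p, 1 TSS per gene, autosomes, somatic members, genes with a peak in both libraries, a log2 ratio, sizes of 5 and 20 points, and exchanged *GFI1-36S* treatments.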

Additional observations from a re-analysis of the deposited data

Results flagged for a closer look

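The median change in rank of the proteasome genes was 0.49 points for *GFI1-36S*, -0.50 for *-36N* and -2.38 for *-KD*, of opposite sign between *GFI1-36S* and the others. Taken over the 41 genes of a pair, the 95% order-statistic intervals of all 3 medians include 0 (-7.73 to 5.25, -7.30 to 4.45 and -6.34 to 2.18). Genes are the units of these intervals, so they hold no spread between mice and are no test of curcumin. With the most upstream TSS alone the median of *GFI1-36S* is -0.54. Genes that moved by at least 10 points in opposite directions in different genotypes are given here. The share of all genes that did so was not computed, and with 1 library per arm these differences were not tested. *Psmd14* rose by 32.2 points in *GFI1-36S* and fell by 13.2 in *-KD*. *Psme1* rose by 27.8 in *GFI1-36S* and fell by 18.4 in *-KD*. *Psmc6* rose by 26.0 in *GFI1-36S* and fell by 10.2 in *-36N*. *Psma6* fell by 41.1 in *GFI1-36S*, where its local background rose, and rose by 12.2 in *-36N*. *Psmb3* fell by 11.2 in *GFI1-36S* and rose by 12.1 in *-36N*. *Psmb6* fell by 11.6 in *GFI1-36S* and rose by 20.0 in *-KD*. *Psmc2* fell by 31.0 in *GFI1-36S* and rose by 25.9 in *-36N*, where different peaks were chosen in the libraries of each pair. The counting interval of the log2 ratio includes 0 for *Psmd14* and *Psme1* in *-KD* and for *Psmc6* and *Psma6* in *-36N*. It also includes 0 for *Psmb3* in both genotypes and *Psmb6* in *GFI1-36S*, and lies off 0 for the other moves. From the fragments alone, the ratio was -0.05 for *Psmd14* and -0.35 (-0.65 to -0.05) for *Psme1* in *-KD*, and 0.03 for *Psmc6* in *-36N*. All 7 genes differ between *GFI1-36S* and another genotype. The library labelled *GFI1-36S* curcumin, which stands apart in its T-cell, neutrophil and chromosome Y peaks, held the lowest rank of *Psma6* and *Psmb6* (44.5 and 29.7). It also held the highest of *Psmc6* and *Psme1* (75.5 and 80.4). The *GFI1-36S* vehicle library held the lowest rank of *Psmd14* and *Psme1* (56.5 and 52.6) and the highest of *Psmb3* (64.1). The part of either library in these differences was not tested.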

How the results depend on the processing

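The labels carry no replicate numbers, and the 3 genotypes served as pairs. Over 25 results and 221 alternative values, 207 stayed within 1.5 times a count or within the 95% order-statistic interval of a median, and 14 did not. That interval is over the genes of 1 library or pair and is a wide mark, as from -7.73 to 5.25 points for the change in *GFI1-36S*. Log2 ratios were judged by whether their interval held 0. The tally omits the genes that moved one way in all 3 genotypes under settings tried for some results only. At 5 points *Psmb5*, *Psmd5* and *Psmg4* rose and *Psmc1* and *Psmd4* fell. With both peaks required *Psmd5* and *Psmg4* rose, and at 20 points or with *GFI1-36S* exchanged no gene did. The count with a promoter peak in all 6 libraries was 39 to 41, and the median change was -0.54 to 3.97 points in *GFI1-36S*, -1.14 to -0.05 in *-36N* and -2.69 to -0.05 in *-KD*, where the values nearest 0 in the last 2 are log2 ratios. With equal numbers of top peaks, 7 genes fell in *GFI1-36S* and 10 in *-36N*. With a −log10 q of at least 5, 1 gene (*Psmc1*) fell by 10 points in all 3 genotypes. By construction, smaller and larger sizes changed the counts: at 5 points, 14 genes rose in *GFI1-36S*, 11 rose and 16 fell in *-36N* and 15 fell in *-KD*, and at 20 points, 4 rose and 5 fell in *GFI1-36S*, 1 rose and 0 fell in *-36N*, and 2 rose and 2 fell in *-KD*. For the counts under the alternatives given so far, the shares of all genes were not computed, and the cause of the other moves was not tested. Chosen after seeing the data were every transcript of GENCODE, members with a peak alone, and leaving out the library labelled *GFI1-36S* curcumin. So were the *-36N* and *-KD* pairs alone, in which 3 proteasome genes rose by at least 10 points in both and 0 fell. Over all genes, 2.19% rose and 2.56% fell by that size in both pairs. Added then as well were the limma test and summit ratios from the fragments alone. The test called 0 proteasome genes under each of its 5 alternatives, and some other genes without the *-KD* or the *GFI1-36S* pair. In the ratios from fragments the local background does not enter, and the interval lay below 0 for 2 proteasome genes in *GFI1-36S* instead of 4. No share over all genes was computed for that measure. Fragments per summit limit the precision: at 100 to 200 of them, counting error alone moves a rank by many points, as from 47.3 to 76.9 for *Psmb5* in *GFI1-36S* vehicle.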
